A study of Mus musculus with 90 samples.

Results

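The genes described here encode the receptors that bind glucocorticoids in liver, the plasma protein that carries these hormones and the enzymes that convert them. The list has 7 of the 27654 genes in the count tables and was drawn up by gene symbol: *Nr3c1*, *Nr3c2*, *Hsd11b1*, *H6pd*, *Serpina6*, *Akr1d1* and *Srd5a1*. All 7 passed the filter on low counts in each comparison of groups. Livers of male C57BL/6J mice were sequenced as poly(A) RNA in 90 libraries, with 1 liver per library. In the diet experiment WT mice on caloric restriction (cal. res.) were set beside WT mice on control diet (ctrl.) at ZT12, with 3 livers each. In the corticosterone experiment WT mice given corticosterone (CORT) were set beside WT mice given vehicle at ZT12, also with 3 livers each. A time series covered WT and GR LKO mice on both diets every 4 h from ZT0 to ZT20, with 18 livers per genotype on cal. res., and 22 WT and 20 GR LKO livers on ctrl.

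WT mice of the time series were GRfl/fl and carried no Cre, and GR LKO mice were GRfl/fl x Alb-Cre. Their Cre is driven by the albumin promoter and acts in hepatocytes, so that other liver cells keep the gene. Mice of the other experiments were labelled WT. In the diet groups single housing began at 12 weeks of age, and tissue was taken at the end of an 8-week protocol. Restricted mice were brought down in weekly steps to 40% less food, offered at ZT12, and control mice ate at night in the last week. The control libraries of the diet experiment have AL in their titles and night-restricted feeding as their treatment label. By the study's methods, CORT mice were 12 weeks old when handling began and received 5 mg/kg corticosterone into the peritoneum at ZT11 on 7 days. The study's results give ZT12 for the injections. Controls received the solvent by the methods, and both groups were fed at night. The libraries used as vehicle controls have NR in their titles. In the time series each diet was also its own batch of libraries, so a diet effect and a batch effect cannot be told apart there. Diets were compared there mainly through the genotype effect within each, which may itself differ by batch. Diet differences among its ZT12 WT livers and correlations by diet are also given below, with the batch in them.

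Corticosterone, the main glucocorticoid of mice, is made in the adrenal cortex and circulates largely bound to corticosteroid-binding globulin, the product of *Serpina6*, which hepatocytes secrete. Inside cells it binds the glucocorticoid receptor (GR, *Nr3c1*) and, with higher affinity, the mineralocorticoid receptor (MR, *Nr3c2*), while the reductase encoded by *Hsd11b1* makes it anew from its inactive keto form with NADPH that the product of *H6pd* supplies. The A-ring reductases encoded by *Akr1d1* and *Srd5a1* start its breakdown, which takes place mainly in liver.

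Liver identity was checked with lists of marker genes. The 7 hepatocyte markers summed to between 69950 and 178500 CPM (median 101600) over the 90 libraries, with *Alb* as the most abundant. Markers of other liver cells were present at lower sums, with medians of 143 CPM for Kupffer and myeloid cells, 235 CPM for stellate cells and 156 CPM for endothelial cells. Of tissues outside the liver, 1 of 6 adipocyte markers (*Fabp4*) and 2 of 4 adrenal cortex markers (*Star* and *Cyp21a1*) were above 0 in all 90 libraries, and *Plin1*, *Cyp11b1* and the pancreas marker *Prss1* in none. In 2 libraries the exocrine pancreas sum was 1102 CPM (cal. res. ZT12 WT replicate 3) and 688 CPM (ctrl. ZT16 WT replicate 2), against at most 4.57 CPM in the others. Erythrocyte markers reached 3859 CPM in cal. res. ZT0 GR LKO replicate 2, where the next library had 1534 CPM. Correlations with the rest of the group were lowest for ctrl. ZT20 GR LKO replicate 1 (r = 0.961) and ctrl. ZT0 WT replicate 3 (r = 0.968, on log2 CPM), and 0.973 or more elsewhere. Results of the time series were therefore also computed without these 5 libraries, a setting chosen after seeing the data.

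Caloric restriction changes the daily supply of food and hormone at once, whereas injected corticosterone adds hormone to night feeding. In the diet experiment 5 of the 7 members were called, 3 higher and 2 lower on cal. res., where 47.1% of all tested genes were called. With so high a share among all genes, the count describes these members and sets them apart from nothing. Marker genes were called higher on cal. res. for several cell types, with 3 of 7 for hepatocytes (sums of 161800 to 163600 CPM against 91230 to 96790 CPM, *Alb* most abundant), 4 of 6 for endothelial cells (194 to 222 CPM against 116 to 153 CPM, *Clec4g*) and 3 of 6 for stellate cells (289.5 to 321 CPM against 195.5 to 233 CPM, *Dcn*), none of them at 0. Of 4 tested cholangiocyte markers 2 were called higher, though the sums overlapped. The only tested adipocyte marker was called higher (sums of 8.50 to 9.24 CPM against 3.35 to 5.91 CPM), and of the 2 tested adrenal cortex markers 1 was called higher and 1 lower. Called lower were 1 of 8 Kupffer and myeloid, 1 of 3 tested lymphocyte and 1 of 5 tested erythrocyte markers. Sums were lower without overlap for lymphocytes (4.69 to 5.85 CPM against 6.59 to 8.05 CPM), adrenal cortex (4.61 to 7.07 CPM against 7.86 to 9.27 CPM) and neutrophils (0.171 to 0.273 CPM against 0.325 to 0.660 CPM). Their part in the diet changes of the members below was not tested. In the corticosterone experiment edgeR's quasi-likelihood test called 0 of the 7, while 8.11% of all tested genes were called. At unadjusted p < 0.05 the number was 3 members and 2997 genes, and DESeq2 called 1 member. With CORT 2 of 7 hepatocyte and 1 of 8 Kupffer and myeloid markers were called higher, and 1 of 6 endothelial, 1 of 6 stellate and 1 of 4 tested cholangiocyte markers lower, the last in a list with a median log2 fold change of 0.34. Sums were apart for endothelial cells (77.1 to 92.5 CPM against 95.2 to 119.8 CPM with vehicle), erythrocytes (301 to 557.5 CPM against 632 to 785 CPM) and neutrophils (1.57 to 2.28 CPM against 0.0719 to 0.622 CPM), and what they add to the values of the members was not tested. A call in one experiment and its absence in the other is not a tested difference, since the experiments had separate livers and depths.

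Loss of GR from hepatocytes was read at each time point as GR LKO against WT. On cal. res. the members called numbered 1 at ZT0 (0.502% of all tested genes called), 2 at ZT4 (0.69%), 1 at ZT8 (2.55%), 3 at ZT12 (15.3%), 2 at ZT16 (4.54%) and 2 at ZT20 (1.47%). These were 11 calls in 42 tests, 6 of them for the targeted gene. On ctrl. there were 8 calls in 42 tests, again 6 for the targeted gene, with 1 member called at ZT0 (0.536%), 1 at ZT4 (0.195%), 2 at ZT8 (1.43%), 2 at ZT12 (2.08%), 1 at ZT16 (1.98%) and 1 at ZT20 (0.42%). The interaction of genotype with diet was called for 1 member at ZT12 (1.01%). By edgeR's quasi-likelihood test it was called for 0 members at ZT8 (0.081%) and ZT16 (0.234%), where 2 and 1 had unadjusted p < 0.05 and DESeq2 called 1 each time. It was called for 0 members and 0% of genes at ZT0, ZT4 and ZT20. There 1266, 746 and 878 genes had unadjusted p < 0.05, among them 0, 1 and 0 members, and DESeq2 called 176, 37 and 48 genes with 0 members. All p-values here measure spread between mice.

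Rhythms of 24 h were tested with JTK_CYCLE in each group of diet and genotype. In WT livers on ctrl. 4 of the 7 members were called (27.3% of all genes with a count), and in GR LKO livers on ctrl. 3 (22.7%). On cal. res. the numbers were 2 in WT (21.7%) and 4 in GR LKO (19.8%). A difference between the genotypes in cosine and sine of time was called by limma for 0 members on ctrl. (0.366% of genes) and 0 on cal. res. (0.659%). At unadjusted p < 0.05 those numbers were 0 members and 1261 genes on ctrl., and 2 members and 1575 genes on cal. res., so a rhythm called in one genotype alone is no tested difference.

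**Figure D1:**
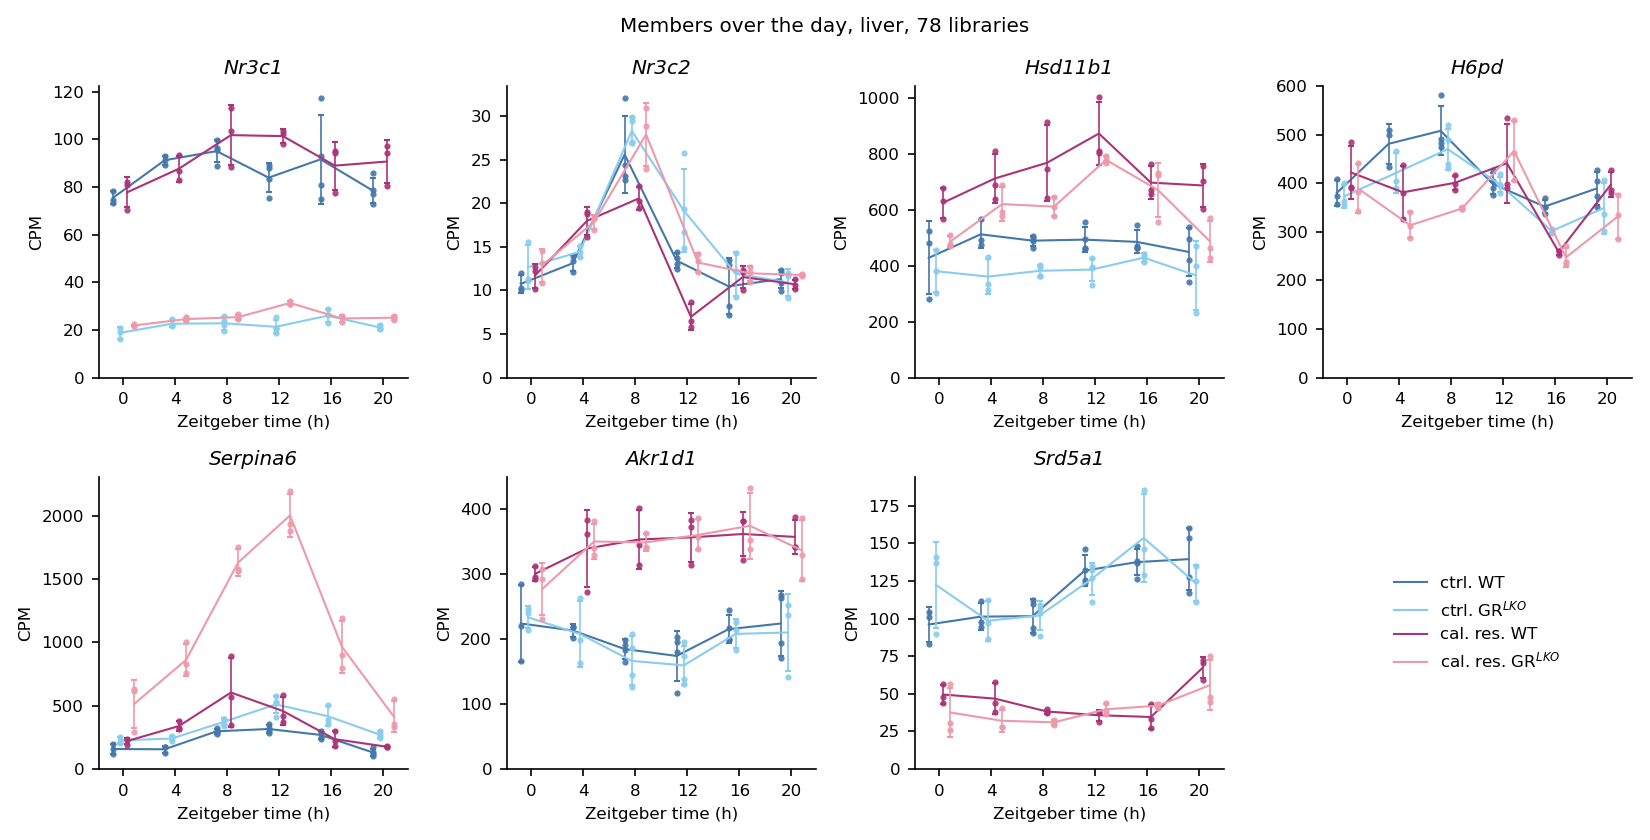
Level of each member in CPM (vertical axis, from 0) against zeitgeber time in h, with 1 point per liver of the time series, lines through group means and error bars of 1 SD. *Nr3c1* in GR LKO livers lies below WT at each time, and *Serpina6* in GR LKO livers on cal. res. peaks at 2001 CPM at ZT12.

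GR is the receptor through which corticosterone reaches most of its liver genes, and *Nr3c1* is the gene that Cre cuts in GR LKO hepatocytes. Its reads thus check the genotype label of each time-series library. On ctrl. the 22 WT livers held 72.8 to 117 CPM (median 86.9) and the 20 GR LKO livers 16.2 to 28.8 CPM (median 21.7). On cal. res. the 18 WT livers held 70.5 to 113 CPM (median 94.0) and the 18 GR LKO livers 21.6 to 32.2 CPM (median 25.0). At each time point the genotypes were apart, so 0 libraries went against their label. *Nr3c1* fell at all 12 combinations of diet and time, with log2 fold changes between -2.06 (ctrl. ZT8) and -1.70 (cal. res. ZT12) and adjusted p of at most 0.00309 (edgeR's quasi-likelihood test, Benjamini-Hochberg adjustment). GR LKO livers thus retained between 24.0% and 30.9% of the WT mean. Tables of whole genes do not show which cells or exons this remainder came from. In whole liver, fewer cells of a type and less RNA per cell cannot be told apart. Whether the loss differed between diets was tested as an interaction, which was called at 0 of 6 time points (log2 difference -0.03 to 0.30, lowest adjusted p = 0.311 at ZT12, the same test).

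In the diet and corticosterone experiments themselves *Nr3c1* was not called. In the diet experiment the livers held 84.5, 88.4 and 86.5 CPM on cal. res. and 88.3, 90.1 and 95.9 CPM on ctrl. The groups overlapped by a narrow margin, and the log2 fold change was -0.08 (adjusted p = 0.317, standard error 0.06, edgeR's quasi-likelihood test). Taken from the ZT12 WT livers of the time series, where diet and library batch coincide, it was 0.25 in the other direction (adjusted p = 0.0328, the same test). With CORT the values were 61.8, 83.3 and 66.3 CPM against 74.3, 77.4 and 69.1 CPM with vehicle. These overlapped widely, at a log2 fold change of -0.06 (adjusted p = 0.808, standard error 0.13, the same test), which was 0.025 without CORT replicate 1 and -0.21 without CORT replicate 2.

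Over the day *Nr3c1* moved little. WT means on ctrl. ran, from high to low, through ZT8, ZT16, ZT4, ZT12, ZT20 and ZT0, from 95.1 ± 4.56 to 75.4 ± 2.73 CPM (SD), and among neighbours in this order only ZT4 and ZT12 did not overlap. On cal. res. the WT order was ZT8, ZT12, ZT20, ZT16, ZT4 and ZT0 (102 ± 12.5 to 77.8 ± 6.31 CPM), with gaps between ZT12 and ZT20 and between ZT4 and ZT0. The GR LKO livers on cal. res., at 31.3 ± 0.73 CPM at ZT12 and 21.9 ± 0.40 CPM at ZT0, had both of these ends apart from their neighbours. JTK_CYCLE called a rhythm on cal. res. in WT (adjusted p = 0.0434) and in GR LKO (adjusted p = 0.0136), each with its peak at ZT12, but not on ctrl. (0.118 in WT and 1 in GR LKO), where log2 CPM in place of VST values gave a call in WT (0.0497). Neither call is firm. Without replicate 3 the adjusted p was 0.553 in WT and 0.241 in GR LKO, replicates 1 and 2 each ended both calls too, and without the 5 libraries named above it was 0.081 in WT. The genes whose WT pattern was most like that of *Nr3c1* were *Arfgef1*, *Gm10025* and *Aff4*. Their Pearson correlations of log2 CPM, taken as the lower of ctrl. (22 livers) and cal. res. (18 livers), were 0.666, 0.657 and 0.60.

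MR binds corticosterone as well as aldosterone, and its gene had as few as 83 estimated counts in a WT library on cal. res. In the diet experiment *Nr3c2* was at 6.31, 6.26 and 6.52 CPM on cal. res. and at 20.5, 18.1 and 19.3 CPM on ctrl. The groups lay far apart, and *Nr3c2* fell by 1.60 on the log2 scale (adjusted p = 7.66e-05, standard error 0.09, edgeR's quasi-likelihood test), to 33.0% of the control mean. In the ZT12 WT livers of the time series the change was -0.97 (adjusted p = 0.00218, the same test), again with the batch in it. Corticosterone gave 16.9, 10.7 and 12.9 CPM against 8.92, 10.1 and 11.2 CPM with vehicle. These groups overlapped, and the log2 fold change of 0.42 (standard error 0.19) was not called (adjusted p = 0.21, the same test).

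In GR LKO livers *Nr3c2* was higher at ZT12 on cal. res., the time at which WT livers had their lowest level. The GR LKO livers held 13.4, 14.1 and 12.1 CPM and the WT livers 5.82, 8.65 and 6.44 CPM. These were apart, and *Nr3c2* rose by 0.91 on the log2 scale (adjusted p = 0.0135, standard error 0.17, edgeR's quasi-likelihood test). Without WT replicate 3, the library with pancreas transcripts, the log2 fold change was 0.85 and the adjusted p 0.0536 (the same test), short of a call. On ctrl. at ZT12 the GR LKO livers had 25.7, 19.4, 16.7 and 14.9 CPM and the WT livers 14.5, 12.5, 13.1 and 13.7 CPM. The lowest of the former was above the highest of the latter, but the log2 fold change of 0.51 was not called (adjusted p = 0.196, standard error 0.16, the same test). The interaction with diet at ZT12 was not called either (log2 difference 0.42, adjusted p = 0.479, the same test). At the other times log2 fold changes lay between -0.05 and 0.44, none called by this test. The largest was at ZT8 on cal. res. (adjusted p = 0.0957), where the genotypes were apart, as at ZT20, and where a fit of all cal. res. libraries together gave a call (0.0313).

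*Nr3c2* had its highest mean at ZT8 in all 4 groups: 25.6 ± 4.42 and 28.3 ± 1.56 CPM in WT and GR LKO livers on ctrl., and 20.6 ± 1.31 and 27.9 ± 3.57 CPM on cal. res. Each of these did not overlap with the next level in its order. On ctrl. that next level was ZT12 in both genotypes, and all lower neighbours overlapped. In WT livers on cal. res. the order was ZT8, ZT4, ZT0, ZT16, ZT20 and ZT12, and ZT12, at 6.97 ± 1.49 CPM, was apart from the level above it, as was ZT0 from ZT4. JTK_CYCLE called the rhythm in WT (adjusted p = 0.00469) and GR LKO livers (0.00107) on ctrl. and in GR LKO livers on cal. res. (0.00607). In WT livers on cal. res. it did not (adjusted p = 0.399), whereas limma's cosine fit did (0.0201). Without replicate 1 the 3 JTK_CYCLE calls were lost, at 0.0989, 0.0534 and 0.139. The WT call was also lost without replicate 2 (0.0647), and the one on cal. res. without replicate 2 (0.109) or 3 (0.132). Its nearest genes in pattern were *Stard4* (0.838), *Tbcel* (0.831) and *Zfp526* (0.769), by the same lower correlation over 22 and 18 livers.

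**Figure D2:**
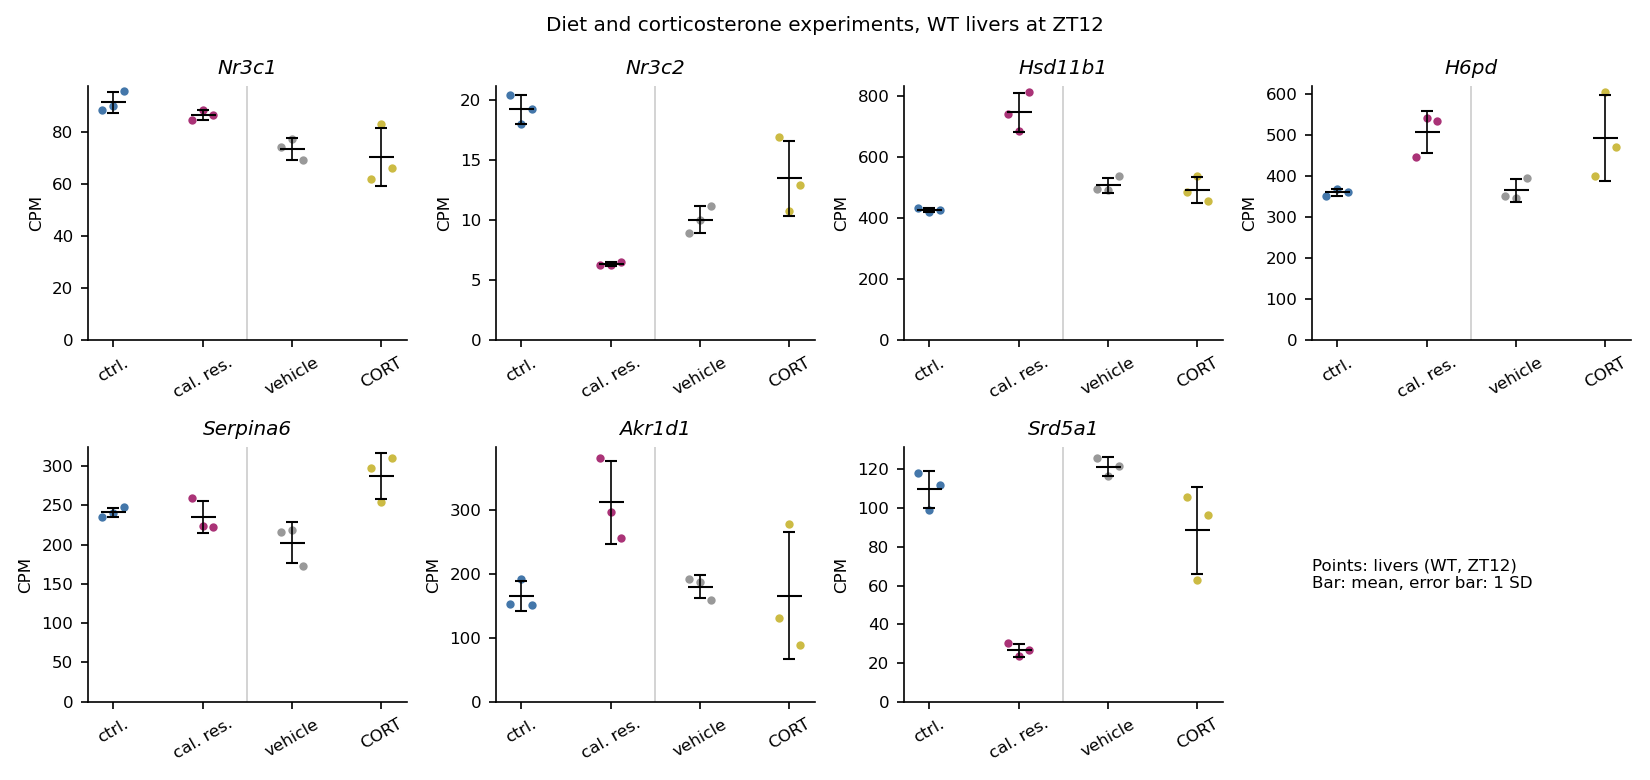
Level of each member in CPM (vertical axis, from 0) in the WT livers of the diet and corticosterone experiments at ZT12, with 1 point per liver, the mean as a bar and error bars of 1 SD. *Nr3c2* and *Srd5a1* are lower on cal. res. without overlap, at 6.37 and 26.7 CPM on average.

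The enzyme made from *Hsd11b1* sits in the endoplasmic reticulum and regenerates active corticosterone there. Hexose-6-phosphate dehydrogenase, from *H6pd*, shares this compartment and feeds it NADPH from glucose-6-phosphate. On cal. res. at ZT12 *Hsd11b1* was at 742, 686 and 813 CPM, and on ctrl. at 434, 419 and 426 CPM. The groups were apart, and *Hsd11b1* rose by 0.81 on the log2 scale (adjusted p = 0.000522, standard error 0.08, edgeR's quasi-likelihood test). *H6pd* had 448, 541 and 535 CPM against 353, 370 and 361 CPM. This gap too was free of overlap, with a rise of 0.49 (adjusted p = 0.00476, standard error 0.09, the same test). In the ZT12 WT livers of the time series *H6pd* was not called, at a log2 fold change of 0.12 (adjusted p = 0.459, the same test), where *Hsd11b1* rose by 0.80 (adjusted p = 0.00137).

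Under CORT neither gene was called. *Hsd11b1* was at 484, 538 and 456 CPM against 494, 493 and 537 CPM, with overlap and a log2 fold change of -0.05 (adjusted p = 0.829, standard error 0.10, edgeR's quasi-likelihood test), or 0.013 without CORT replicate 3 and -0.12 without CORT replicate 2. *H6pd* was at 401, 606 and 471 CPM against 352, 347 and 397 CPM. The CORT livers of *H6pd* all lay above the vehicle livers, yet at a log2 fold change of 0.43 (standard error 0.16) the adjusted p was 0.149, and 0.0749 with DESeq2.

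Loss of hepatocyte GR gave *Hsd11b1* a log2 fold change below 0 at all 12 combinations of diet and time, between -0.50 (ctrl. ZT4) and -0.06 (cal. res. ZT16), with 1 call. That call was at ZT8 on ctrl., where GR LKO livers held 365, 404, 397 and 363 CPM and WT livers 500, 507, 465 and 489 CPM. They did not overlap, and *Hsd11b1* fell by 0.36 on the log2 scale (adjusted p = 0.0131, standard error 0.05, edgeR's quasi-likelihood test). Adipocyte marker sums were higher in these GR LKO livers as well, at 13.7 to 50.2 CPM against 4.00 to 5.49 CPM, with 1 of 2 tested called, and their part was not tested. The adjusted p was 0.0613 without WT replicate 1, 0.0531 without WT replicate 2, and 0.544 in a fit of all ctrl. libraries together. At ZT0 and ZT20 on cal. res. and at ZT4 and ZT12 on ctrl. the genotypes were likewise apart with lower GR LKO values but not called, at adjusted p of 0.114, 0.131, 0.279 and 0.121 (the same test), and DESeq2 called these 4 (0.00136, 0.0151, 0.0185 and 0.0131). At ZT12 on cal. res. and ZT16 on ctrl. they were apart as well, without a call. Hepatocyte marker sums in GR LKO livers were lower without overlap at ZT0 on cal. res. (104800 to 113100 CPM against 118500 to 121800 CPM). The same held at ZT4 on ctrl. (74940 to 82800 CPM against 97100 to 99430 CPM). They overlapped at ZT20 on cal. res. and ZT12 on ctrl. Adipocyte sums at ZT4 on ctrl. were 11.2 to 21.0 CPM against 4.86 to 5.63 CPM. What these markers add was not tested. *H6pd* was not called at any time, with log2 fold changes from -0.28 to 0.07, while DESeq2 called it at ZT16 on ctrl. (0.00198). The interaction with diet was called for neither gene at any of 6 time points (lowest adjusted p = 0.587 for *Hsd11b1* and 0.596 for *H6pd*).

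By time of day *Hsd11b1* had overlapping neighbours throughout on ctrl., between 513 ± 49.5 CPM at ZT4 and 429 ± 130 CPM at ZT0 in WT livers. On cal. res. the WT order was ZT12, ZT8, ZT4, ZT16, ZT20 and ZT0 (874 ± 114 to 626 ± 54.4 CPM), again with overlap between neighbours. JTK_CYCLE called *Hsd11b1* in GR LKO livers on cal. res. with a peak at ZT12 (adjusted p = 0.0107) and in no other group (0.069 in WT on cal. res., where limma's cosine fit gave 0.0306). The call was lost without replicate 1 (0.19), 2 (0.196) or 3 (0.096). *H6pd* was rhythmic on ctrl. instead, with its highest means at ZT8 in WT (508 CPM) and GR LKO livers (470 CPM) and its lowest at ZT16 (352 ± 13.7 and 302 ± 4.36 CPM). Those calls had adjusted p of 0.00796 and 0.0175 from JTK_CYCLE, and were lost without replicate 3 (0.143) or 4 (0.074) in WT and without replicate 1 (0.0943) or 2 (0.290) in GR LKO. On cal. res. *H6pd* had its lowest mean at ZT16 in both genotypes, apart from the level above, although no rhythm was called there. Nearest in pattern to *Hsd11b1* were *Pipox* (0.712), *Mfsd4b1* (0.700) and *Gc* (0.694), and to *H6pd* *Hbp1* (0.878), *Tcp11l2* (0.861) and *Nr2c2* (0.860).

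Corticosteroid-binding globulin is secreted by hepatocytes and holds most of the corticosterone in plasma, so its gene *Serpina6* links the liver to the hormone's free level. Among the members it had the largest rise in GR LKO livers. At ZT12 on cal. res. the GR LKO livers held 2196, 1877 and 1931 CPM and the WT livers 375, 419 and 581 CPM. No value came near the other group, and *Serpina6* rose by 2.12 on the log2 scale (adjusted p = 0.000656, standard error 0.17, edgeR's quasi-likelihood test), to 437% of the WT mean. At ZT16 the livers held 903, 799 and 1190 CPM against 181, 303 and 225 CPM. These were apart by a wide margin too, and the rise was 2.03 (adjusted p = 0.00346, standard error 0.22, the same test).

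At ZT4 *Serpina6* was at 1001, 829 and 756 CPM in GR LKO and 313, 383 and 323 CPM in WT livers on cal. res. There was no overlap, and the rise of 1.34 on the log2 scale was called (adjusted p = 0.015, standard error 0.13, edgeR's quasi-likelihood test), though not without WT replicate 1 (0.0559) or GR LKO replicate 2 (0.0973). At ZT20 the values were 333, 554 and 353 CPM against 173, 183 and 173 CPM. They were apart, with a rise of 1.26 (adjusted p = 0.0311, standard error 0.19), and each WT library left out ended this call (0.143, 0.115 and 0.138). ZT8 had 1749, 1563 and 1575 CPM against 891, 351 and 570 CPM, and ZT0 had 296, 612 and 631 CPM against 232, 239 and 193 CPM. The genotypes were apart at both times, but the log2 fold changes of 1.44 and 1.22 were short of a call (adjusted p = 0.0563 and 0.113, the same test). DESeq2 called both (0.0044 and 0.00713).

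On ctrl. *Serpina6* was called at ZT12, where GR LKO livers held 524, 530, 573 and 413 CPM and WT livers 355, 284, 323 and 302 CPM. The groups were apart, and the rise was 0.68 on the log2 scale (adjusted p = 0.0157, standard error 0.11, edgeR's quasi-likelihood test). Of 8 fits that each left out 1 of these libraries 5 kept the call, and it was lost without WT replicate 2 (0.0605), WT replicate 3 (0.0534) or GR LKO replicate 1 (0.0522). At the other 5 times GR LKO values also lay above WT without overlap, with log2 fold changes from 0.32 (ZT8) to 1.05 (ZT20), and none was called by this test (lowest adjusted p = 0.0585). DESeq2 called ZT4, ZT8, ZT16 and ZT20. The diets were then compared by the interaction. In it, a genotype effect that differs by batch cannot be told apart from one that differs by diet. At ZT12 the genotype effect was larger on cal. res. by 1.45 on the log2 scale (adjusted p = 0.00671, standard error 0.21, the same test). A replicate block in this test ended the call (adjusted p = 0.0681). At ZT16 the genotype effect was larger by 1.40 (standard error 0.28), which was not called (adjusted p = 0.0781), but was by DESeq2 (0.000101) and without cal. res. WT replicate 2 (0.0363). At ZT8 the difference of 1.121 was not called either (adjusted p = 0.241), with a call from DESeq2 (0.0142) and without cal. res. WT replicate 1 (0.0128). At ZT0, ZT4 and ZT20 it lay between 0.19 and 0.71, with adjusted p of at least 0.526.

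**Figure D3:**
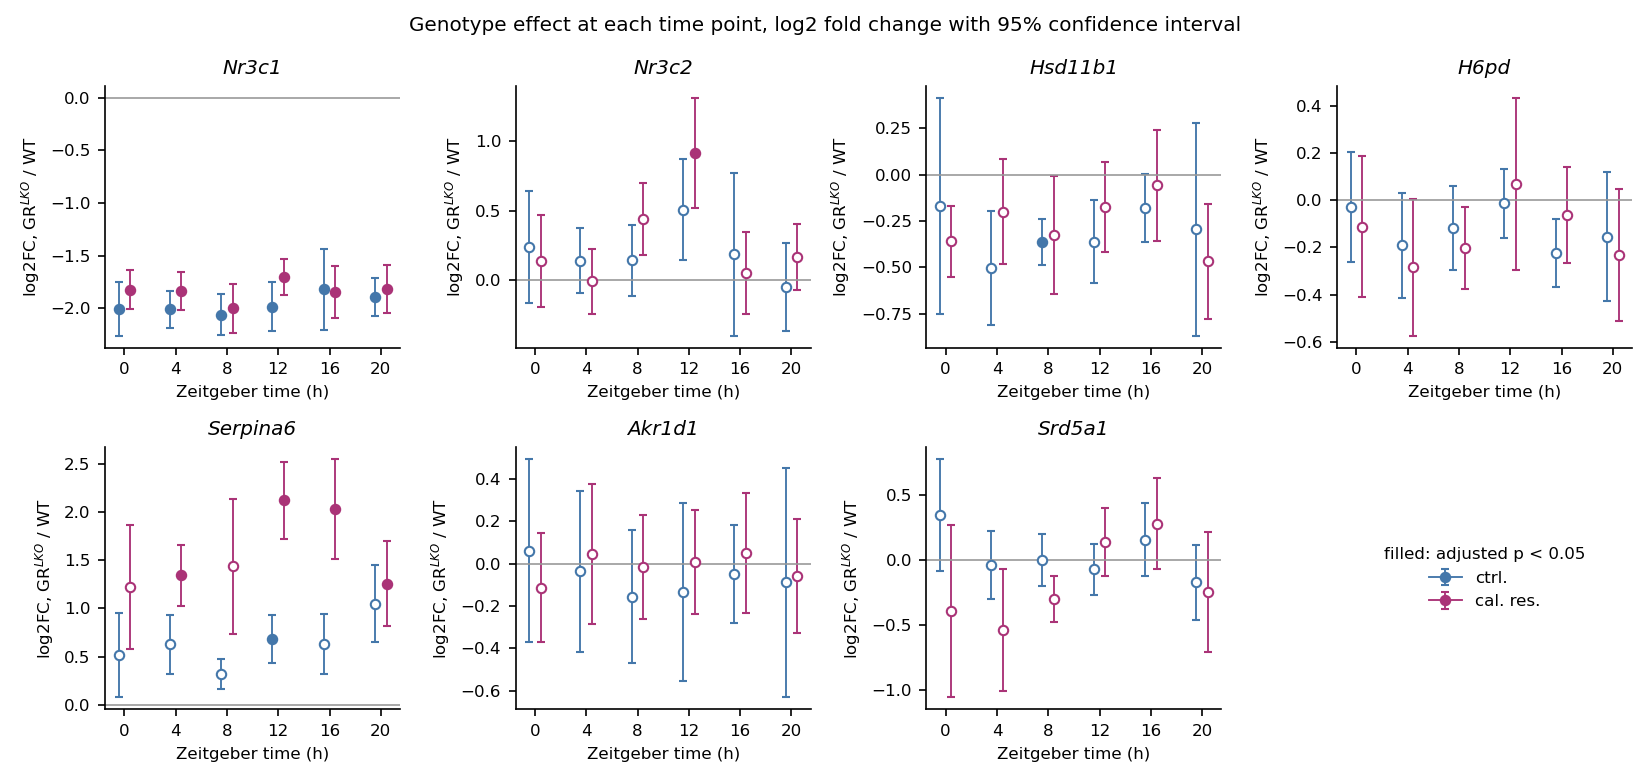
Log2 fold change of GR LKO over WT (vertical axis) at each zeitgeber time in h, by diet, with 95% confidence intervals and filled points where the adjusted p is under 0.05. *Serpina6* lies above 0 on both diets at all times, up to 2.12, and *Nr3c1* lies between -2.06 and -1.70.

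Other cell types were read beside the *Serpina6* rise. At ZT12 on cal. res. 4 of 8 Kupffer and myeloid markers were called higher in GR LKO livers and summed to 117 to 178 CPM against 51.8 to 86.2 CPM in WT livers (*Clec4f* most abundant, no marker at 0). Of the 7 hepatocyte markers 6 were called lower, with sums of 121500 to 138000 CPM against 171800 to 178500 CPM. Endothelial sums were also higher, at 198.5 to 222 CPM against 149 to 180 CPM, with 1 of 6 markers called, and 1 of 5 tested erythrocyte markers was called higher. Lymphocyte sums were 3.73 to 6.34 CPM against 1.96 to 3.49 CPM and cholangiocyte sums 31.5 to 32.5 CPM against 26.4 to 31.2 CPM, with 1 of 3 tested cholangiocyte markers called lower against the direction of the sum. On ctrl. at ZT12 3 of 7 hepatocyte and 0 of 8 Kupffer and myeloid markers were called, with hepatocyte sums of 69950 to 91280 CPM against 84560 to 101200 CPM. Adipocyte sums there were 5.73 to 38.4 CPM in GR LKO and 2.85 to 3.84 CPM in WT livers (3 of 6 markers at 0), with 1 of 2 tested markers called higher. Over all libraries *Fabp4* reached at most 16.55 CPM and *Cfd* 49.03 CPM, so *Fabp4* was not most of the highest sum. Among the other times with a *Serpina6* call on cal. res., ZT16 had hepatocyte sums of 105300 to 132700 CPM against 137300 to 144900 CPM, with 1 of 7 markers called lower and 1 of 5 tested erythrocyte markers higher in a list with a median log2 fold change of -0.21. Neutrophil sums at ZT16 were apart too, at 0.867 to 1.002 CPM against 0.213 to 0.822 CPM, with none of these markers tested. No marker was called at ZT4 or ZT20, with endothelial sums at ZT4 of 203 to 239 CPM against 153 to 177 CPM and adipocyte sums at ZT20 of 9.61 to 12.7 CPM against 5.69 to 9.55 CPM. The part of these markers in the rise of *Serpina6* or *Nr3c2* was not tested.

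By edgeR's quasi-likelihood test on all their libraries, the diet and corticosterone experiments gave *Serpina6* no call. In the diet experiment it was at 259, 224 and 222 CPM on cal. res. and at 235, 240 and 247 CPM on ctrl. The ranges were nested, with a log2 fold change of -0.04 (adjusted p = 0.729, standard error 0.08, edgeR's quasi-likelihood test) and 0.00696 without cal. res. replicate 3. The ZT12 WT livers of the time series, confounded with batch, gave 0.51 instead (adjusted p = 0.0296, the same test). With CORT the values were 297, 254 and 310 CPM against 216, 218 and 173 CPM with vehicle. These did not overlap, and the log2 fold change of 0.50 (standard error 0.13) was just short of a call (adjusted p = 0.0545), passing with DESeq2 (0.00392) and without CORT replicate 2 (0.0363).

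*Serpina6* was the member with a rhythm called in all 4 groups. WT livers on ctrl. ran through ZT12, ZT8, ZT16, ZT0, ZT4 and ZT20, from 316 ± 30.5 to 132 ± 29.9 CPM, and the only gap between neighbours was from ZT16 to ZT0. On cal. res. the WT order was ZT8, ZT12, ZT4, ZT16, ZT0 and ZT20 (604 ± 271 to 176 ± 5.40 CPM), with gaps from ZT4 to ZT16 and from ZT0 to ZT20. GR LKO livers on cal. res. ran through ZT12, ZT8, ZT16, ZT4, ZT0 and ZT20, from 2001 ± 171 to 413 ± 122 CPM, and ZT12, ZT8 and ZT16 did not overlap with one another, nor did ZT4 and ZT0. Adjusted p from JTK_CYCLE was 0.00121 in WT and 8.36e-05 in GR LKO livers on ctrl., and 0.000803 and 0.00237 on cal. res. The last 2 were lost without replicate 1, at 0.0622 and 0.101, and without replicate 3, at 0.0718 and 0.096, and the GR LKO call also without replicate 2, at 0.0618. The difference in rhythm between genotypes on cal. res. had an adjusted p of 0.191 (limma). Nearest in WT pattern were *Gys2* (0.852), *Mknk2* (0.840) and *A930033H14Rik* (0.836).

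The A-ring reductases *Akr1d1* (5β-reductase, also an enzyme of bile acid synthesis) and *Srd5a1* (5α-reductase) act on the same double bond and give different products. Caloric restriction moved the pair in opposite directions. *Akr1d1* was at 383, 298 and 256 CPM on cal. res. and at 154, 193 and 151 CPM on ctrl. at ZT12. No liver overlapped with the other group, and *Akr1d1* rose by 0.91 on the log2 scale (adjusted p = 0.00405, standard error 0.16, edgeR's quasi-likelihood test). *Srd5a1* was at 30.2, 23.5 and 26.5 CPM against 118, 99.2 and 112 CPM. The groups were far apart, and *Srd5a1* fell by 2.04 (adjusted p = 8.67e-05, standard error 0.11, the same test), to 24.4% of the control mean. In the ZT12 WT livers of the time series the changes were 1.01 (adjusted p = 0.00351) and -1.91 (adjusted p = 0.000139). *Srd5a1* overlaps *Nsun2* on the other strand, but they share 0 exon bases in GENCODE M21, and *Nsun2* had a log2 fold change of -0.10 in the diet experiment.

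With CORT *Akr1d1* spread from 88.8 to 278 CPM (132, 278 and 88.8), around the vehicle livers at 193, 188 and 159 CPM. The groups overlapped, and a log2 fold change of -0.11 came with a standard error of 0.38 (adjusted p = 0.89, edgeR's quasi-likelihood test). Without CORT replicate 2 it was -0.72, and without CORT replicate 3 it was 0.19. *Srd5a1* was at 106, 63.0 and 96.6 CPM with CORT and at 126, 117 and 122 CPM with vehicle. All CORT values lay below the vehicle values, at a log2 fold change of -0.46 (standard error 0.18) that was not called (adjusted p = 0.162, the same test). CORT replicate 2 held the highest *Akr1d1* and the lowest *Srd5a1* of its group.

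Hepatocyte GR loss gave neither reductase a call on either diet. For *Akr1d1* the log2 fold changes of GR LKO over WT lay between -0.16 and 0.06, the genotypes overlapped at all 12 combinations, and the lowest adjusted p was 0.711 (edgeR's quasi-likelihood test). *Srd5a1* ranged from -0.54 to 0.35, and the genotypes were apart only at ZT8 on cal. res., with 29.5, 31.2 and 32.5 CPM in GR LKO and 37.3, 39.8 and 37.7 CPM in WT livers (log2 fold change -0.30, adjusted p = 0.101, the same test). JTK_CYCLE called no rhythm of *Akr1d1* in any group, and limma's cosine fit called it in GR LKO livers on ctrl. (0.0412). Its WT means went from 224 ± 59.5 CPM at ZT0 to 174 ± 38.7 CPM at ZT12 on ctrl., and from 361 ± 34.5 CPM at ZT16 to 299.9 ± 10.3 CPM at ZT0 on cal. res. *Srd5a1* was called in WT livers on ctrl. (adjusted p = 0.00508 from JTK_CYCLE, 0.226 without replicate 3), with the order ZT20, ZT16, ZT12, ZT8, ZT4 and ZT0 from 139.5 ± 20.5 to 96.1 ± 11.5 CPM and its only gap between ZT12 and ZT8. In GR LKO livers on ctrl. it was just short of the threshold (0.0506), and past it in the cosine fit (0.00509). On cal. res. *Srd5a1* was highest at ZT20 in both genotypes, at 67.4 ± 7.12 and 55.8 ± 16.6 CPM, apart from the next level, with no call from JTK_CYCLE (0.131 and 0.17) and calls from the cosine fit (0.0129 and 0.0297). Nearest in pattern to *Akr1d1* were *Bola3* (0.578), *Gstt3* (0.577) and *Mme* (0.567), and to *Srd5a1* *Hao1* (0.721), *Mup20* (0.689) and *Nat8* (0.673), where *Mup20* belongs to a family of near-identical copies.

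Whether the members share a pattern across WT livers was not tested, and their correlations are given here. On ctrl. (22 livers) the largest correlation of log2 CPM among their 21 pairs was 0.652 for *Nr3c2* with *H6pd*. On cal. res. (18 livers) *Nr3c1* had correlations of 0.771 with *Hsd11b1*, 0.675 with *Serpina6* and 0.593 with *Akr1d1*, against 0.247, 0.332 and -0.08 on ctrl. *Hsd11b1* had 0.656 with *Serpina6* and 0.579 with *Akr1d1* on cal. res., against 0.134 and 0.353 on ctrl. *Serpina6* with *Srd5a1* was at -0.585 on cal. res. and 0.0261 on ctrl. Library depth and time of day vary across these livers, and diet coincides with library batch. The values are descriptions only.

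Lists of genes around the members were read too, and what their changes say about GR activity was not tested. All 8 classical GR targets rose in the diet experiment (median log2 fold change 2.01, beside 0.00 for all genes), where 47.1% of all genes were called. With CORT all 8 rose as well (2.22, beside -0.01), where 8.11% were. In GR LKO livers at ZT12, 6 of 8 fell on cal. res. (median -1.20, with 15.3% of all genes called) and 5 of 8 on ctrl. (-1.13, with 2.08%), among them *Zbtb16* at -3.62 and -3.86. At ZT0, ZT4, ZT8, ZT16 and ZT20 on cal. res. 0, 1, 3, 2 and 0 fell, beside 0.502%, 0.69%, 2.55%, 4.54% and 1.47% of all genes called. On ctrl. 0, 0, 2, 4 and 0 fell, beside 0.536%, 0.195%, 1.43%, 1.98% and 0.42%. Medians at these times were between -0.84 and -0.43 on cal. res. and between -1.15 and -0.04 on ctrl. Differences between times were not tested for this list. Of 18 chaperones of GR 9 rose and 1 fell in the diet experiment (median 0.30), where 47.1% of all genes were called. With CORT 1 of them rose and 4 fell (median -0.16), where 8.11% of all genes were called. *Fkbp5* is counted both in this list and among the classical GR targets. *Hsp90aa1*, the chaperone that holds GR ready for its ligand, fell by 1.33 on the log2 scale with CORT, and *Fkbp5*, which lowers the ligand affinity of GR, rose by 2.63 (adjusted p = 0.00879 and 0.00797, edgeR's quasi-likelihood test). Of 17 coregulators 7 rose and 3 fell in the diet experiment, also beside 47.1%, with *Ppargc1a* up by 1.94.

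Further enzymes of steroid metabolism were called in both directions on cal. res., as *Akr1d1* and *Srd5a1* were. Of 20 tested in the diet experiment, where 47.1% of all genes were called, 6 rose and 10 fell (median log2 fold change -0.37, beside 0.00 for all genes). *Hsd3b5*, a reductase of steroids in male liver, fell by 7.23 to 1.57 ± 1.89 CPM (SD, n = 3), and *Sult1e1*, the estrogen sulfotransferase, rose by 5.37. With CORT 20 of the list were tested as well, without *Sult1e1*, and 1 rose and 0 fell, where 8.11% of all genes were called. Of 8 genes for glucose-6-phosphate and NADPH supply, the setting of *H6pd*, 3 rose and 1 fell on cal. res. beside the same 47.1%, with *Por* at 1.16 and *G6pc* at 1.21. *Slc37a4*, which carries glucose-6-phosphate into the endoplasmic reticulum where *H6pd* works, fell in GR LKO livers at ZT12 by 1.22 on cal. res. and by 0.83 on ctrl. (adjusted p = 3e-04 and 0.00198, edgeR's quasi-likelihood test). Of 2 tested genes for other steroid receptors 1 rose in the diet experiment, again beside 47.1%, namely *Esr1* by 1.26 (adjusted p = 0.00479, the same test). In GR LKO livers 1 of the 2 was called lower at ZT8, ZT12 and ZT16 on cal. res. (2.55%, 15.3% and 4.54% of all genes called). On ctrl. 1 was called lower at ZT16 (1.98%) and 1 higher at ZT20 (0.42%).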

How the data were processed

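Whole-liver poly(A) RNA was sequenced in 90 libraries. The authors checked reads with FastQC 0.11.9 and MultiQC 1.12, quantified them with Salmon 1.8.0, used tximport 1.18.0 to sum over transcripts, and deposited these estimated counts by gene (build mm10 in the submitters' processing notes). Libraries held 36442195 to 39492146 counts in the diet experiment, 13739631 to 16077943 in the corticosterone experiment, and 14235473 to 20788575 (cal. res.) or 10057544 to 17089004 (ctrl.) in the time series. The lowest member value was 83 counts (*Nr3c2*), which bears on counting error only and not on the spread between mice. A VST table of the corticosterone experiment was not used, and other assays were not analysed here.

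Here, in R 4.3.3, counts were rounded, filtered with filterByExpr (minimum count 10), scaled by TMM and tested for all genes with edgeR 4.0.16 (quasi-likelihood, Benjamini-Hochberg adjusted p < 0.05), by comparison or, for genotype by diet, by time point over 4 groups. Levels are CPM after TMM scaling within each table. JTK_CYCLE (period 24 h, 6 phases) used VST values from DESeq2 1.42.0, and limma 3.58.1 tested differences in rhythm. Scripts were first tested on simulated data. Alternatives were DESeq2, RLE factors, no filter, a replicate block, a joint fit, log2 CPM, a cosine fit and leaving out libraries. Members and lists were chosen with earlier results of these data known. Besides the members, the text names from each list at most the 2 called genes with the largest change in each direction and a group mean of at least 5 CPM, and 3 genes nearest in pattern per member; *Nsun2* was named after its values were seen. None of 102 pairs of libraries within groups was identical (chi-square per degree of freedom at least 10.9).

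Limits are few mice per group, 1 cycle of time points, whole-gene counts from whole liver and an annotation that the sources do not give. The labels give TruSeq v2 chemistry, the study's methods also name a stranded kit, and whether counting used strand is not known here. Gm17108, which shares 476 of the 2909 exon bases of *Srd5a1* on the same strand, cannot be separated from it. On the other strand, Gm10649 shares 247 of the 6474 exon bases of *Nr3c2*, which matters if counting ignored strand.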

Additional observations from a re-analysis of the deposited data

Results flagged for a closer look

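*Serpina6* had a genotype effect at ZT12 that differed between the diets by a test of the difference itself. The log2 difference was 1.45, larger on cal. res. (adjusted p = 0.00671, edgeR's quasi-likelihood test). With a replicate block in this test the call was lost (adjusted p = 0.0681). Diet and library batch coincide here, so a genotype effect that differs by batch cannot be told apart from one that differs by diet.

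Among 42 member values in the 6 groups of 4 livers, 2 had a library far from the other 3. *H6pd* in ctrl. ZT8 WT replicate 3 was at 583 CPM with the next at 492 CPM, and *Hsd11b1* in ctrl. ZT16 WT replicate 1 was at 547 CPM with the next at 470 CPM. Chance marks about 1 in 20 groups this way, and smaller groups were not examined.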

How the results depend on the processing

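Of 25 member calls between groups, 18 kept their side of the threshold in each alternative, and 0 changed direction. Of these, 12 of 12 were kept for *Nr3c1*, the targeted gene, and 6 of 13 for the other members. RLE factors changed no count of members. Leaving out 1 library at a time, or for rhythms 1 replicate number over all times, gave 422 values. Among them 374 stayed the same, 36 were weaker, 7 stronger and 5 of another sign. Settings that left out no library of a comparison repeated the main value and are counted as the same. DESeq2 gave an adjusted p for 40 of 42 interactions.

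The corticosterone experiment had 1 call with DESeq2 and 0 to 1 with each library left out. Genotype calls on ctrl. were 15 with DESeq2. The interaction had 3 calls with DESeq2, 0 with the replicate block and 1 to 2 with each library left out. Rhythm calls numbered 4 to 12 with each replicate number left out, where groups have fewer livers. For the other moves the cause was not tested.

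Values near 0 changed sign in some settings. Among time-series WT livers at ZT12, diet gave 0.25 for *Nr3c1* and 0.51 for *Serpina6*, and in the diet experiment with 1 library left out *Serpina6* ranged from -0.105 to 0.00696. Under CORT, with 1 library left out, the log2 fold change of *Akr1d1* ranged from -0.72 to 0.19, of *Hsd11b1* from -0.12 to 0.013 and of *Nr3c1* from -0.21 to 0.025.

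Replicate numbers were shared by the groups, but in 0 of 14 comparisons did each pair correlate above 0.1. With a replicate block, member calls were 5 for diet, 0 for CORT, 9 for genotype on cal. res. and 6 on ctrl. It ended the *Serpina6* calls at ZT4 and ZT20 on cal. res., at ZT12 on ctrl. and in the interaction at ZT12. The *Hsd11b1* call at ZT8 on ctrl. was lost with it too. Without the 5 doubted libraries, a setting chosen after seeing the data, genotype calls were 10 on cal. res. and 8 on ctrl., with 12 rhythm calls.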
